A study of Mus musculus with 36 samples.

Results

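The phase II conjugation enzymes described here are the glutathione S-transferases (Gst and the membrane-bound Mgst), the UDP-glucuronosyltransferases (Ugt) and the cytosolic sulfotransferases (Sult). Members were taken by symbol, as every gene of the expression table named Gsta, Gstk, Gstm, Gsto, Gstp, Gstt, Gstz, Mgst, Ugt or Sult with a number. These were 46 of 12652 genes, namely 21 Gst, 3 Mgst, 7 Ugt1a, 9 Ugt2 and 6 Sult genes. The symbol was the only criterion, but earlier results of these data were known when the families were chosen. Gsto2 and Sult4a1 did not reach 1 RPKM (reads divided by gene length and by library size) in 4 libraries and were not tested. Gsto2 ranged from 0.0233 to 0.821 RPKM and Sult4a1 from 0.247 to 0.791 RPKM. The remaining 44 were tested among 11361 genes.

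The transcripts were measured by mRNA sequencing of intestinal organoids, self-organising epithelial cultures, from 2 male wild-type C57BL/6 littermates aged 8 weeks, with 1 culture per mouse. Single cells were grown until day 3 in medium with EGF, Noggin and R-spondin, to which Wnt3a-conditioned medium, the ROCK inhibitor Y-27632 and the GSK3 inhibitor CHIR99021 were added. The cultures were then changed to medium without those 3 additions and given atRA (all-trans retinoic acid, 10 µM), 9cisRA (9-cis retinoic acid, 10 µM), an RXR antagonist (written RXRi in the labels, 5 µM) or the vehicle DMSO. RNA was taken at 6 h and 24 h, and from untreated cultures at 0 h, with duplicate RNA purifications for each mouse and condition, which gave 36 libraries in 9 conditions. No genotype other than wild type was used. The mouse is the replicate (n = 2), and duplicates were averaged within a mouse before testing. Each p-value rests on the spread left once mouse and condition are fitted, estimated over all 9 conditions and moderated across genes. Differences are log2 fold changes of RPKM + 0.5, tested with limma in a model with the mouse as a replicate block. In lists of 4 values, the duplicates of mouse 1 stand before those of mouse 2.

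Conjugating enzymes attach a water-soluble group to drugs, hormones, bile pigments and reactive lipids. Gst and Mgst enzymes use glutathione, Ugt enzymes use UDP-glucuronic acid, and Sult enzymes use PAPS, the activated form of sulfate. The small intestine is a main site of these reactions outside the liver, chiefly in the absorptive enterocytes, and export pumps return the conjugates to the lumen or pass them to the blood. RXR is the shared partner of several nuclear receptors known to act on conjugation genes, among them PXR, CAR, the PPARs and the vitamin D receptor, and 9-cis retinoic acid is a ligand of both RXR and the retinoic acid receptors, whereas all-trans retinoic acid is a ligand of the retinoic acid receptors.

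The libraries held 19.6 M to 30.7 M recovered reads. Epithelial markers (Epcam, Cdh1, Krt8, Vil1 and Cdx2) were all present, with a summed level of 4531 to 8243 RPKM across the 36 libraries. Of 7 markers of other cells that such a culture could hold, only Vim was among the genes listed, and the other 6 were not analysed here. The summed level of the enterocyte markers moved with the conditions, although single markers moved in both directions with the isomers, as given below. Over 10 genes the sum at 24 h was 17414 to 25003 RPKM with atRA, 21334 to 28487 RPKM with 9cisRA, 2793 to 4577 RPKM with RXRi and 8855 to 14668 RPKM with DMSO. At 0 h it was 1263 to 1873 RPKM. The sum does not stand for each marker.

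**Figure D1:**
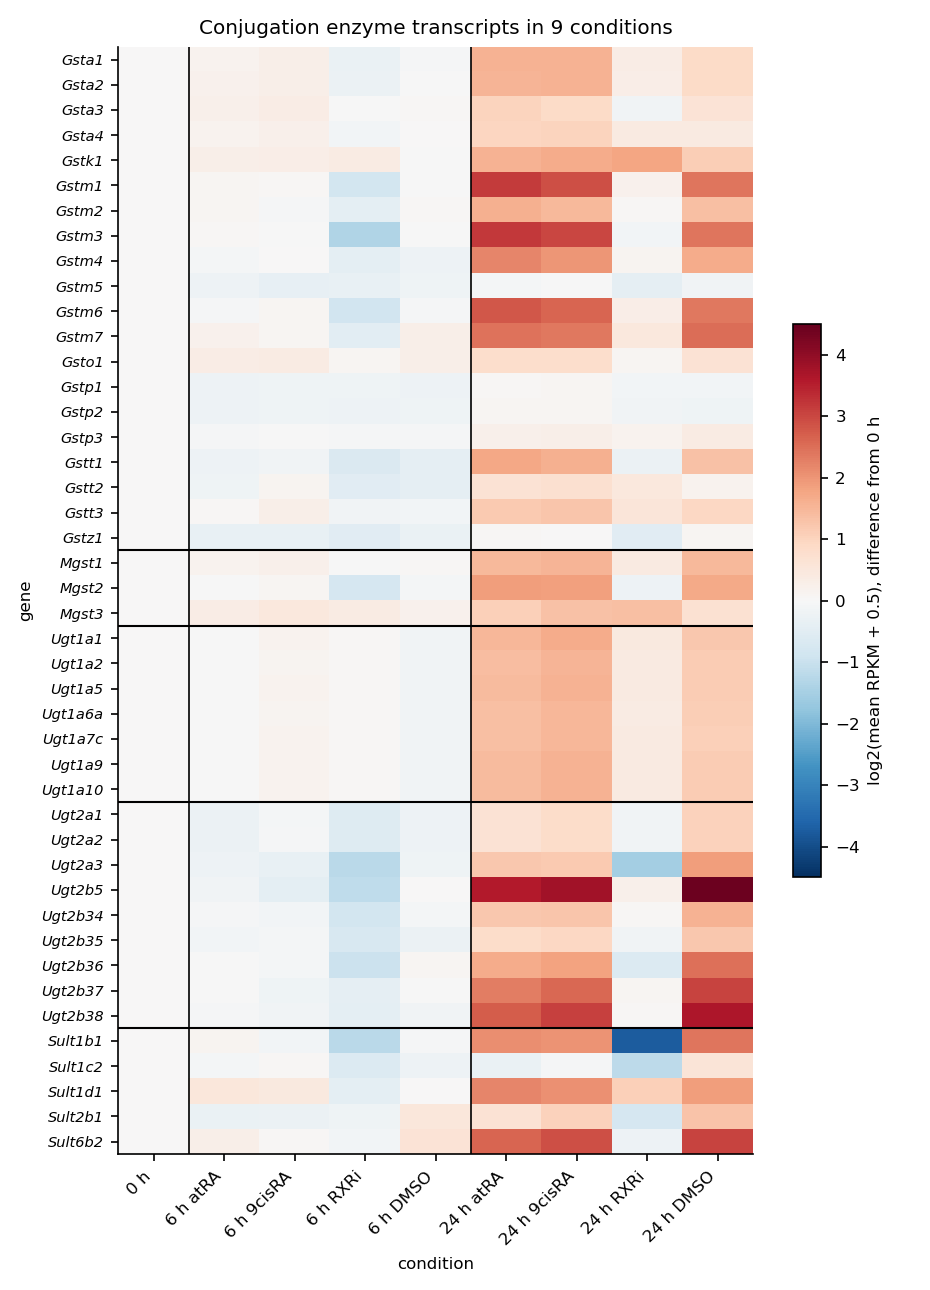
Mean expression of the 44 tested genes (rows, grouped by family) in the 9 conditions (columns). Colour gives the difference of log2(mean RPKM + 0.5) from 0 h, red higher and blue lower. Most Ugt2, Gstm and Sult rows are reddest at 24 h with DMSO, atRA or 9cisRA and lose most of that colour at 24 h with RXRi.

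The members took 0.665% to 0.753% of all reads at 0 h, 0.626% to 0.747% at 6 h with DMSO and 1.26% to 1.36% at 24 h with DMSO. In the first 24 h after the medium change, 40 of 44 members rose with DMSO relative to 0 h and 0 fell, against 29.2% of all tested genes higher and 30.3% lower (limma, Benjamini-Hochberg adjusted p below 0.05). The median log2 difference of the members was 1.14, and 30 members were higher by at least 2-fold, against 4.87% of all tested genes. By family the members that rose were 16 of 20 Gst, 3 of 3 Mgst, 7 of 7 Ugt1a, 9 of 9 Ugt2 and 5 of 5 Sult genes. The listed Ugt1a values share most of their reads, as do Ugt2a1 and Ugt2a2. Counting genes that share reads once, the total of 40 was 33. All 9 tested enterocyte markers rose as well, with a median log2 difference of 3.33, and their part in the members' rise was not tested. In RNA from whole cultures, more cells of a type and more RNA per cell cannot be told apart. The 0 h cultures had received no DMSO, so vehicle, medium change and time cannot be told apart in this comparison.

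The rise came after 6 h. At 24 h relative to 6 h in DMSO, 41 members rose and 0 fell, against 25.4% and 24.5% of all tested genes. At 6 h relative to 0 h, 4 members rose (Sult6b2, Sult2b1, Gsto1 and Mgst3) and 11 fell, against 22.3% and 23.4% of all tested genes. Of the 11 that fell, 6 are Ugt1a genes whose listed values share reads, and the others were Gstt1, Gstt2, Gstz1, Gstp1 and Ugt2b35. This 6 h count depended on single samples. It was 6 without the first mouse 1 library of the 6 h DMSO cultures, 8 without the second mouse 2 library of the 6 h RXRi cultures, 9 without mouse 1 and 27 without mouse 2. Without the replicate block it was 3 (Gstt2, Gstp1 and Sult2b1).

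The Ugt2 genes, whose enzymes conjugate steroids, bile acids and fatty acids, included the largest rises. Ugt2b5 had 2.22, 1.92, 2.93 and 2.87 RPKM at 0 h, 1.38, 1.85, 3.69 and 3.24 RPKM at 6 h with DMSO and 52.7, 51.6, 73.0 and 77.7 RPKM at 24 h with DMSO, a log2 difference of 4.42 ± 0.17 (SE) at 24 h relative to 0 h. The 24 h libraries stood above all libraries of 0 h and 6 h. Ugt2b38 rose by 3.63, Ugt2b37 by 3.04 and Ugt2b36 by 2.47 on the log2 scale. The pseudocount of 0.5 RPKM makes these smaller than the ratios of the levels, most for genes low at 0 h. Ugt2b38 averaged 0.409 RPKM at 0 h and 10.8 RPKM at 24 h with DMSO, and Ugt2b37 0.243 and 5.67 RPKM. The order of these rises is therefore not an order of ratios. Among the mu-class Gst genes, whose enzymes conjugate epoxides and other electrophiles, Gstm7 rose by 2.49, Gstm3 by 2.41 and Gstm1 by 2.41. Sult6b2 rose by 3.08, and Sult1b1, which sulfates thyroid hormones and phenols, by 2.38. The 4 that did not pass the test were Gstm5 (-0.15 ± 0.12), Gstp1 (-0.12 ± 0.07), Gstp2 (-0.18 ± 0.09) and Gstz1 (0.09 ± 0.10, log2 ± SE).

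Many members lie in gene clusters (members within 300 kb of the next). The cluster of 11 on chromosome 5 (mm10, chr5:86889767-87569027) holds all 9 Ugt2 genes together with Sult1b1 and Sult1d1. All 11 rose by 24 h with DMSO, against 29.2% of all tested genes. All 11 fell with RXRi at 24 h, against 30.4% of all tested genes. They are not 11 separate measurements. Ugt2a1 and Ugt2a2 had equal read numbers in 35 of 36 libraries, and some of the Ugt2b genes are near-identical. The 7 Gstm genes lie at chr3:107895821-108044894 and the 7 Ugt1a genes at chr1:88055388-88220002. The promoter sequences of 4 Ugt2b genes are shown, chosen because AGGTCA lies near their annotated start. Ugt2b34 and Ugt2b35 also rose and fell but are not shown. AGGTCA is absent from the Ugt2b34 window and begins at -215 from the start in Ugt2b35. Each is a 100-base window on the minus strand of chromosome 5 from RefSeq (GRCm38.p6), with AGGTCA, the hexamer many nuclear receptors bind, in capitals.
Ugt2b5 (chr5:87140317-87140416): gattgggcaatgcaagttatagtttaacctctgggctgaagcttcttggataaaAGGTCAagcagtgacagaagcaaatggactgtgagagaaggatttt
Ugt2b38 (chr5:87424183-87424282): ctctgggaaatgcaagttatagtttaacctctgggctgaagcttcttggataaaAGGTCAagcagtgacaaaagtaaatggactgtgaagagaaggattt
Ugt2b37 (chr5:87254782-87254881): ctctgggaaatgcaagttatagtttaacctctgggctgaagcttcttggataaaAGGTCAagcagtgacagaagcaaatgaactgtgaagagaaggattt
Ugt2b36 (chr5:87092535-87092634): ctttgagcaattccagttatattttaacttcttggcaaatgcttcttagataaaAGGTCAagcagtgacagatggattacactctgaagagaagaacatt
A run of 22 bases, gataaaAGGTCAagcagtgaca, is identical in all 4. The first base of AGGTCA lies 22 bases before the annotated start in Ugt2b5, 25 in Ugt2b38, 39 in Ugt2b37 and 25 in Ugt2b36. Over the 100 bases, Ugt2b38 is 97.0% identical to Ugt2b37 and 87.0% to Ugt2b5, whereas Ugt2b36 is 65.0% to 72.0% identical to the other three. Because the windows were chosen for AGGTCA and aligned on it, their sharing of that hexamer was fixed in advance. The letters describe the windows only and say nothing of what binds there.

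On either strand, AGGTCA occurs in the promoter windows (250 bases before to 50 after the start) of 10 of the 43 members that have one in RefSeq. These are 10 of the members' 54 promoters, against 16.3% of all 32851 promoters. The 10 members are Ugt2b5, Ugt2b35, Ugt2b36, Ugt2b37, Ugt2b38, Ugt1a7c, Ugt1a9, Gstm1, Gstk1 and Sult1b1. No member's window holds 2 copies of AGGTCA in tandem with 1, 2 or 5 bases between them, an arrangement in 0.0396%, 0.00913% and 0.00913% of all promoters in that order. TGACNNNGC, the core of the antioxidant response element bound by NRF2, occurs in Gsta3, Gstm5, Gstm7 and Mgst1 and in 12.4% of all promoters. GCGTG, the core bound by the aryl hydrocarbon receptor AHR, occurs in 11 members and in 32.4% of all promoters. In Gstm5 the GCGTG on the opposite strand lies within the TGACNNNGC match. The HNF1 motif GTTAAT occurs in 7 members and 7.1% of all promoters, and the GATA motif AGATAA in 8 members and 11.2%. The CDX2 motif TTTATGG occurs in Gstm6 and 2.75% of all promoters, and CAAAGTCCA in Sult1b1 and 0.475%.

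The classes differed widely in level at 24 h with DMSO. The alpha-class genes Gsta1, Gsta2, Gsta3 and Gsta4 summed to 6114 ± 323 RPKM (SD, n = 2 mice), the 7 Gstm genes to 1805 ± 97.5 RPKM, the 3 Mgst genes to 1478.5 ± 28.4 RPKM and Gsto1 with Gsto2 to 1039.6 ± 33.4 RPKM. The Gstp genes summed to 771 ± 20.3 RPKM and the Ugt2b genes to 340.1 ± 52.7 RPKM. Sult1 genes summed to 149 ± 17.1 RPKM. Within pairs of near-identical genes the authors' counting could have moved reads from one to the other. The coding sequences of Gstp1 and Gstp2 are 98.1% identical, those of Gsta1 and Gsta2 97.6%, those of Ugt2b5 and Ugt2b38 97.0%, and those of Ugt2b5 and Ugt2b37 94.7% (GENCODE M21). Values of these single genes are therefore uncertain. Ugt2a1 and Ugt2a2 had equal read numbers in 35 of 36 libraries, so they carry 1 measurement.

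**Figure D2:**
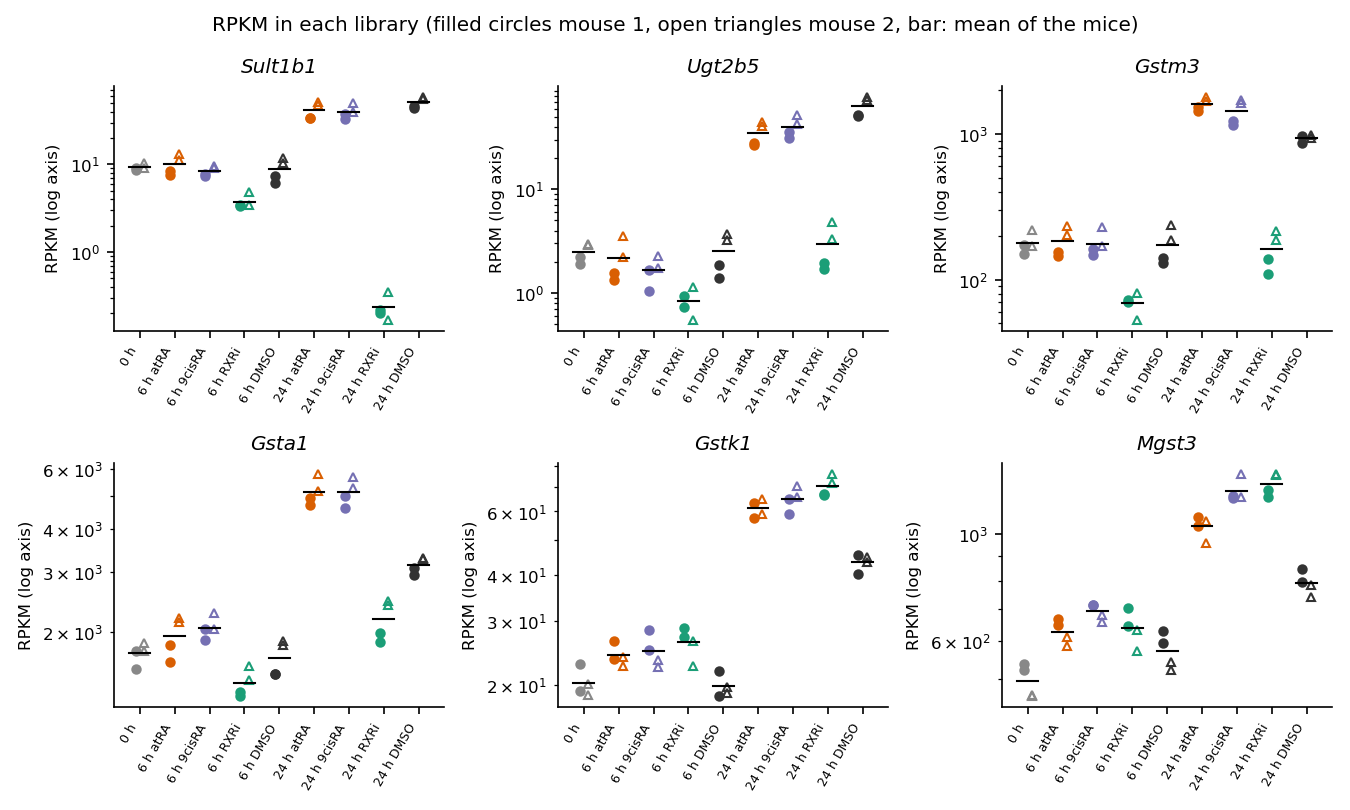
RPKM (log axis) of 6 genes in each of the 36 libraries, by condition, with filled circles for mouse 1, open triangles for mouse 2 and a bar for the mean of the mice. Sult1b1 sits at 0.170 to 0.347 RPKM in the 24 h RXRi libraries and at 43.9 to 58.6 RPKM in the 24 h DMSO libraries, while Gstk1 and Mgst3 are higher with RXRi than with DMSO at 24 h.

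At 24 h most members were lower with the RXR antagonist. With RXRi, 37 of 44 members fell and 3 rose relative to DMSO, against 30.4% of all tested genes lower and 31.1% higher. The median log2 difference of the members was -0.93, and 22 members were lower by at least 2-fold, against 5.96% of all tested genes. By family the members that fell were 14 of 20 Gst, 2 of 3 Mgst, 7 of 7 Ugt1a, 9 of 9 Ugt2 and 5 of 5 Sult genes. The listed Ugt1a values share most of their reads, as do Ugt2a1 and Ugt2a2. Counting genes that share reads once, the total of 40 called members was 33. The members took 0.728% to 0.874% of reads with RXRi and 1.26% to 1.36% with DMSO. All 9 tested enterocyte markers fell as well (median log2 difference -4.54), and their summed level of 2793 to 4577 RPKM with RXRi lay below the 8855 to 14668 RPKM with DMSO. The part of enterocytes in the members' fall was not tested. All 6 Paneth cell markers also fell, 3 of 4 stem cell markers and 4 of 4 cell cycle genes fell, 4 of 7 goblet cell markers and the tuft cell marker Avil rose, 0 of 4 enteroendocrine markers passed the test, and 2 of 5 epithelial markers rose while 3 fell.

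Sult1b1 fell the most. It had 0.205, 0.219, 0.347 and 0.170 RPKM with RXRi, from 13 to 26 reads per library, against 43.9, 46.3, 55.6 and 58.6 RPKM with DMSO, from 2947 to 4240 reads. The ranges do not overlap, and the log2 difference was -6.13 ± 0.12 (SE, adjusted p = 6.62e-13), which the pseudocount of 0.5 RPKM makes smaller than the ratio of the levels. The RXRi libraries also stood below the 0 h level of 8.70, 9.10, 9.02 and 10.5 RPKM. RefSeq lists 2 starts for Sult1b1, and both 300-base windows (GRCm38.p6, minus strand) are shown because this gene fell furthest. Capitals in the first window mark AGGTCA, read there on both strands, and in the second CAAAGTCCA, a motif of the factor HNF4A.
Sult1b1, first start (chr5:87538146-87538445): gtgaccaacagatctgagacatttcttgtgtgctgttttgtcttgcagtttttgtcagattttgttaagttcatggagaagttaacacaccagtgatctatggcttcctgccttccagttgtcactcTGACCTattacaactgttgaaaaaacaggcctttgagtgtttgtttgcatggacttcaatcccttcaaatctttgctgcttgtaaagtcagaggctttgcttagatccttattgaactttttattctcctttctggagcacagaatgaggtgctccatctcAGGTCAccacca
Sult1b1, second start (chr5:87536173-87536472): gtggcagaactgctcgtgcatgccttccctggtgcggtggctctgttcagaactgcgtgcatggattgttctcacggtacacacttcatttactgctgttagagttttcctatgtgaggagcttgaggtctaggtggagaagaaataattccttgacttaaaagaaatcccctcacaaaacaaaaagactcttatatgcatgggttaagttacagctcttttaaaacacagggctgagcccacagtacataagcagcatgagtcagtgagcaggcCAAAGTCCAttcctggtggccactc
Hnf4a itself was higher with RXRi by 0.19 on the log2 scale. Sult6b2 fell by 3.34, Sult2b1, which sulfates cholesterol, by 2.02, and Sult1c2 by 1.81. Sult1d1, known for sulfating catecholamines, fell by 0.79, the smallest fall of the 5.

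The Ugt2 genes fell with a median log2 difference of -2.98. Ugt2b5 had 1.70, 1.95, 4.87 and 3.32 RPKM with RXRi against 52.7, 51.6, 73.0 and 77.7 RPKM with DMSO, and the ranges do not overlap (log2 difference -4.28 ± 0.17, SE, adjusted p = 1.58e-10). Ugt2b38 fell by 3.62, Ugt2b36 by 3.11 and Ugt2b37 by 2.98, which with Ugt2b5 are the genes whose promoter windows are printed above. With RXRi, Ugt2b38 had 8 to 41 reads per library and Ugt2b37 had 7 to 29. Ugt2a3, an enterocyte enzyme, fell by 3.40. The most abundant Ugt2 gene, Ugt2b34, had 72.2, 64.5, 78.8 and 73.3 RPKM with RXRi against 192, 195, 219.9 and 234 RPKM with DMSO. The ranges do not overlap, and it fell by 1.53 on the log2 scale. The 6 Ugt2b genes together had 91.3 ± 9.50 RPKM with RXRi and 340.1 ± 52.7 RPKM with DMSO (SD, n = 2 mice).

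Among the Gst genes the classes differed. The mu class fell most, with 6 of 7 genes lower. Gstm3 had 109, 138, 215 and 186 RPKM with RXRi against 867, 965, 988 and 937 RPKM with DMSO, which do not overlap (log2 difference -2.58 ± 0.15, SE, adjusted p = 7.67e-09). Gstm1 fell by 2.25, Gstm6 by 2.07 and Gstm7 by 2.04. Gstm5, at one end of the cluster, did not pass the test (-0.25 ± 0.12, adjusted p = 0.0837). The alpha class fell less. Gsta1 had 1987, 1863, 2460.0 and 2404 RPKM with RXRi against 2923, 3069.7, 3259.5 and 3282 RPKM with DMSO, again without overlap (log2 difference -0.53 ± 0.07, SE). Gsta3 fell by 0.79. Gsta4, whose enzyme removes the lipid peroxidation product hydroxynonenal, had a difference of 0.00 ± 0.07 and did not pass the test. The theta-class gene Gstt1 fell by 1.59 and its neighbour Gstt3 by 0.39, while Gstt2 beside them rose by 0.31. Gsto1 fell by 0.55 and Gstz1, an enzyme of tyrosine breakdown, by 0.60. Gstp1 and Gstp2 did not pass the test (-0.01 ± 0.07 and 0.03 ± 0.09, log2 ± SE).

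The other members that rose encode enzymes of cell organelles and membranes. Gstk1, of the mitochondrial and peroxisomal kappa class, had 67.1, 66.4, 71.8 and 76.3 RPKM with RXRi against 40.4, 45.5, 44.9 and 43.5 RPKM with DMSO. Mgst3, a membrane-bound glutathione transferase and peroxidase, had 1197, 1234, 1329 and 1334 RPKM with RXRi against 846, 794, 782 and 742 RPKM with DMSO. Every RXRi library stood above every DMSO library for both genes. The log2 differences were 0.68 ± 0.08 for Gstk1 (adjusted p = 7.92e-06) and 0.69 ± 0.08 for Mgst3 (SE, adjusted p = 3.85e-06). Mgst2, of the same family as Mgst3 and known for leukotriene synthesis, fell by 1.91, and Mgst1 by 1.07. The 3 Mgst genes together had 1500.3 ± 116 RPKM with RXRi and 1478.5 ± 28.4 RPKM with DMSO (SD, n = 2 mice).

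**Figure D3:**
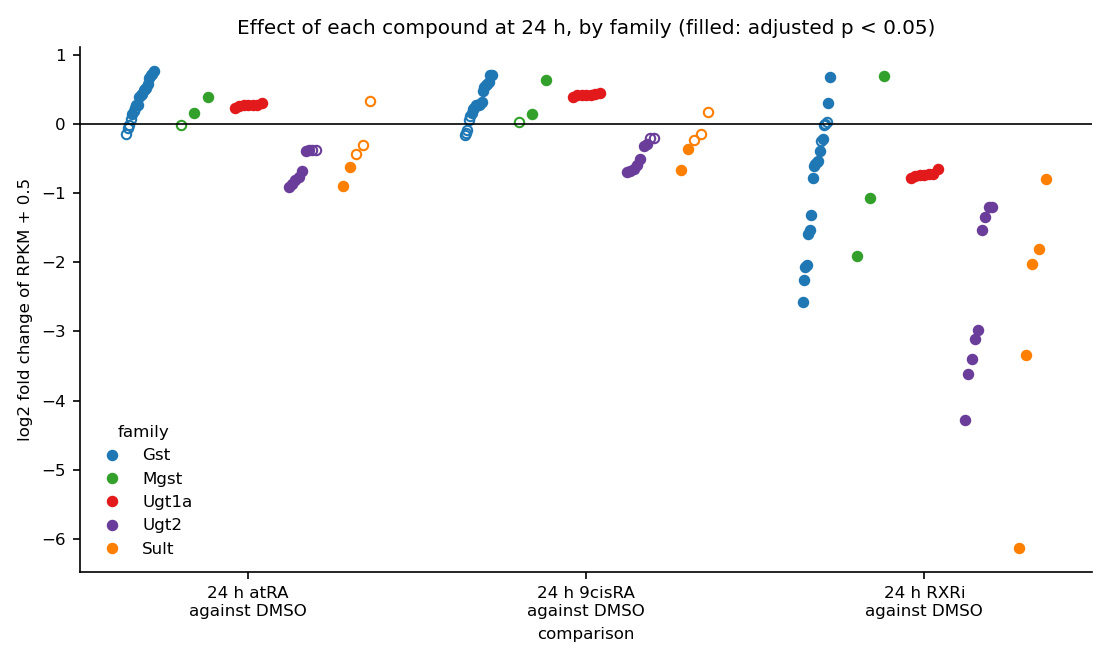
Log2 fold change of RPKM + 0.5 (vertical axis) against DMSO at 24 h for each tested gene, by compound (horizontal axis) and family (colour), filled where the adjusted p was below 0.05. With RXRi the Ugt2 genes lie between -4.28 and -1.19 and Sult1b1 at -6.13, while with atRA and 9cisRA all listed values lie between -0.91 and 0.77. The own parts of the Ugt1a genes are not drawn.

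The 24 h RXRi cultures were also set against 0 h, a comparison added after the data were seen. Relative to 0 h, 18 members were higher and 9 lower, against 36.1% and 34.7% of all tested genes. These counts take each listed Ugt1a value as 1 member, although they share most of their reads. The shared Ugt1a exons were higher by 0.41, and the own parts of Ugt1a1 and Ugt1a7c by 1.01 and 0.39. Those of Ugt1a2 (-0.20), Ugt1a6a (-0.03) and Ugt1a9 (-0.09) did not pass the test. Scaling to the sum of reads gave 16 higher and 13 lower and moved the median of all genes by -0.12. Gstk1 was higher by 1.78, Mgst3 by 1.36 and Sult1d1 by 1.08 on the log2 scale. Lower were Sult1b1 (-3.74), Ugt2a3 (-1.53) and Sult1c2 (-1.21). Of the Ugt2b genes, 5 of 6 did not pass the test, among them Ugt2b5 (0.13 ± 0.17), and their sum was 91.3 ± 9.50 RPKM at 24 h with RXRi and 90.8 ± 2.98 RPKM at 0 h. The Gstm genes summed to 375 ± 115 RPKM at 24 h with RXRi and 374 ± 34.0 RPKM at 0 h (SD, n = 2 mice). Of the 9 tested enterocyte markers 7 were lower at 24 h with RXRi than at 0 h and 2 higher (Fabp1 and Fabp2), while their summed level was 2793 to 4577 RPKM at 24 h with RXRi and 1263 to 1873 RPKM at 0 h.

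Part of the RXRi effect was present at 6 h. At that time 19 members fell and 8 rose relative to DMSO, against 14.6% and 10.6% of all tested genes. Without the replicate block the total of 27 was 11, with 1 higher and 10 lower. Counting genes that share reads once, it was 21. The median log2 difference was -0.24. Of the 9 tested enterocyte markers, 8 fell as well (median -1.30). Gstm3 had 70.1, 72.6, 53.2 and 81.1 RPKM with RXRi at 6 h against 129.8, 141, 236 and 187 RPKM with DMSO. The ranges do not overlap, and Gstm3 fell by 1.29, the lowest log2 difference of all members at 6 h. This order depends on the pseudocount of 0.5 RPKM, which makes the falls of low genes smaller. Ugt2b5, for example, averaged 0.838 RPKM with RXRi and 2.54 RPKM with DMSO. Ugt2b5 fell by 1.13, Sult1b1 by 1.11, Ugt2b36 by 1.02 and Ugt2a3 by 0.97. Gstm6 fell by 0.78, Gstm1 by 0.78 and Gstm7 by 0.72 on the log2 scale. The 8 that rose were Gstk1, by 0.39, and the 7 listed Ugt1a values, by 0.20 to 0.23. These 7 are mostly 1 shared measurement, and the own parts of Ugt1a1, Ugt1a2 and Ugt1a9 did not pass the test.

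The RXRi effect changed between 6 h and 24 h for most members. In the test of the 24 h effect minus the 6 h effect, 34 members were lower and 2 higher, against 16.5% and 18.6% of all tested genes. Sult1b1 had the largest further fall (-5.02), before Ugt2b38 (-3.38) and Ugt2b5 (-3.16). Mgst3 (0.53) and Gstt2 (0.39) were the members whose effect was higher at 24 h than at 6 h.

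With the retinoic acids at 24 h, most Gst genes rose and most Ugt2 genes fell. The 7 listed Ugt1a values also rose, but they share most of their reads, and the own parts of Ugt1a2 and Ugt1a6a did not pass the test as higher with either isomer. With atRA 23 members rose and 9 fell, against 19.4% and 18.6% of all tested genes, and with 9cisRA 21 rose and 9 fell, against 24.4% and 23.5%. Without the replicate block 13 rose and 6 fell with atRA (19 in all), and 15 rose and 2 fell with 9cisRA (17). The 2 that still fell with 9cisRA were Ugt2a3 and Sult1c2, while the Ugt2b genes, Sult1b1, Gstm1 and Gstm3 were no longer called. Scaling to the sum of reads gave 19 higher and 14 lower with atRA, and 15 higher and 11 lower with 9cisRA, where it moved the median of all genes by -0.12. With the block the members that rose with atRA were 14 of 20 Gst, 2 of 3 Mgst and 7 of 7 listed Ugt1a values, and with 9cisRA 12 of 20, 2 of 3 and 7 of 7. Those that fell were Ugt2 and Sult genes, with either isomer 7 of 9 Ugt2 and 2 of 5 Sult genes. No listed value changed by 2-fold with either isomer. The own part of Ugt1a9, a small share of its listed reads, rose by 1.46 on the log2 scale with 9cisRA. The members took 1.57% to 1.83% of reads with atRA, 1.5% to 1.76% with 9cisRA and 1.26% to 1.36% with DMSO.

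The alpha-class Gst genes rose with both isomers. Gsta1 had 4699.7, 4916, 5146 and 5803 RPKM with atRA, 5005, 4618, 5251 and 5658 RPKM with 9cisRA and 2923, 3069.7, 3259.5 and 3282 RPKM with DMSO. Libraries of both isomers stood above all DMSO libraries. The log2 difference of Gsta1 was 0.71 ± 0.07 with atRA (adjusted p = 5.17e-06) and 0.71 ± 0.07 with 9cisRA (SE, adjusted p = 3.29e-06). The alpha class as a whole summed to 9689 ± 773 RPKM with atRA, 9772 ± 629 RPKM with 9cisRA and 6114 ± 323 RPKM with DMSO (SD, n = 2 mice). Gsta2 rose by 0.67 with atRA and 0.71 with 9cisRA, and Gsta4 by 0.57 and 0.60.

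In the mu class Gstm3 had 1432, 1527, 1669 and 1788 RPKM with atRA, 1235, 1146, 1700.5 and 1621 RPKM with 9cisRA and 867, 965, 988 and 937 RPKM with DMSO. All libraries of either isomer were above the DMSO libraries, and Gstm3 rose by 0.77 with atRA and 0.58 with 9cisRA. Gstm1 rose by 0.72 with atRA and 0.47 with 9cisRA. Gstm4 rose with atRA (0.51), and with 9cisRA its difference was 0.29 ± 0.13 and did not pass the test. Gstt2 rose by 0.50 with atRA and 0.54 with 9cisRA, and Gstk1 by 0.49 and 0.57. Mgst3 had 1039, 1088, 960.2 and 1066 RPKM with atRA, 1192, 1201, 1338 and 1197 RPKM with 9cisRA and 846, 794, 782 and 742 RPKM with DMSO, and it rose by 0.39 and 0.64. Gstk1 and Mgst3 were thus higher with all 3 compounds at 24 h than with DMSO, as was Gstt2.

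The Ugt2b genes were lower with both isomers, although all 6 remained above their 0 h level in every library. Ugt2b5 had 27.8, 26.6, 41.2 and 44.7 RPKM with atRA, 35.4, 30.99, 43.0 and 52.0 RPKM with 9cisRA and 52.7, 51.6, 73.0 and 77.7 RPKM with DMSO. The atRA libraries stood below all DMSO libraries, whereas 1 mouse 2 library with 9cisRA reached the lower DMSO values. Within each mouse, both isomers were below DMSO. Ugt2b5 fell by 0.86 with atRA and 0.66 with 9cisRA, Ugt2b38 by 0.91 and 0.60, Ugt2b36 by 0.81 and 0.69, and Ugt2a3 by 0.69 and 0.68. Ugt2b37 fell by 0.77 with atRA and 0.50 with 9cisRA. The Ugt2b sum was 239.9 ± 33.8 RPKM with atRA, 257.5 ± 13.7 RPKM with 9cisRA and 340.1 ± 52.7 RPKM with DMSO (SD, n = 2 mice).

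Sult1c2 had 5.02, 4.60, 5.51 and 5.48 RPKM with atRA, 5.73, 7.08, 5.08 and 6.83 RPKM with 9cisRA and 10.1, 10.3, 10.1 and 9.39 RPKM with DMSO. No library of either isomer reached the DMSO range, and Sult1c2 fell by 0.89 with atRA and 0.66 with 9cisRA. Sult2b1 fell with atRA (-0.62) and did not pass the test with 9cisRA (-0.23 ± 0.14). Sult1b1 fell with 9cisRA (-0.36) and did not pass with atRA (-0.30 ± 0.12). The 9 tested enterocyte markers also divided, with 3 higher and 3 lower with atRA (median log2 difference -0.33) and 4 higher and 3 lower with 9cisRA (median 0.50). Fabp1 rose by 1.16 with atRA and 1.32 with 9cisRA, Fabp2 by 0.49 and 1.04, and Alpi by 0.50 and 0.67. Sis fell by 0.61 with atRA and 0.77 with 9cisRA, and Treh by 0.74 and 0.66. Apoa4 rose with 9cisRA (0.90). The part of enterocytes in these results was not tested.

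At 6 h the isomers did less. With atRA 1 member rose and 1 fell, against 2.79% and 1.87% of all tested genes. These were Gstt2 (0.23) and Sult2b1 (-0.81). The total of 2 was 1 without the replicate block, and 1 to 5 when single libraries or mice were left out, with 5 without the first mouse 1 library of 6 h atRA and 4 without the second mouse 2 library of 6 h DMSO. It was 1 without mouse 1 or without any 1 of 4 other libraries, namely the second mouse 1 libraries of 6 h atRA, 9cisRA and RXRi and the first mouse 2 library of 6 h atRA. With 9cisRA 15 members rose and 1 fell, against 5.01% and 3.03%. Of these, 7 were the Ugt1a genes, and when genes that share reads were counted once the total of 16 was 10. Without the replicate block it was 2 (Gstt2 and Sult2b1). Gstt2 had 18.8, 15.8, 18.9 and 18.5 RPKM with 9cisRA against 10.96, 11.8, 12.7 and 13.3 RPKM with DMSO, which do not overlap, and rose by 0.54 (adjusted p = 2.99e-05). Gstt3 rose by 0.38, Gsta1 by 0.29 and Gsta2 by 0.30. Sult2b1 had 6.27, 5.83, 5.49 and 5.49 RPKM with 9cisRA against 11.6, 10.8, 9.37 and 9.08 RPKM with DMSO, without overlap, and fell by 0.77.

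Between 6 h and 24 h the atRA effect was higher for 4 members and lower for 7, against 10.0% and 7.11% of all tested genes. The 9cisRA effect was higher for 4 and lower for 2, against 10.1% and 7.9%. Without the replicate block each of these totals, 11 and 6, was 1 (Sult1c2). Quantile normalization gave 0 higher and 7 lower with atRA and 0 higher and 3 lower with 9cisRA. The total of 6 was 11 without mouse 1. The Sult1c2 effect differed by -1.04 with atRA and -0.93 with 9cisRA.

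The isomers differ in the geometry of 1 double bond of the side chain, and both were given at 10 µM, so 9cisRA and atRA were compared directly at each time, which made 2 comparisons over 44 members, each adjusted over all tested genes. At 24 h, 0 members were higher and 0 lower with 9cisRA than with atRA, against 0.299% and 0.167% of all tested genes (limma). At an unadjusted p below 0.05 there were 11 of 44. The count was 0 also with limma-voom on recovered reads, and 1 when the 36 libraries were fitted as samples and 1 without mouse 1. All 44 confidence intervals (95%) lay within 2-fold, with the lowest bound at -0.56 and the highest at 0.70 on the log2 scale. The fitted log2 differences ran from -0.25 for Gstm1 to 0.39 for Sult2b1. With 2 mice, these intervals do not show that the isomers act alike. At 6 h, 1 member was higher (Gstt2, 0.31) and 0 lower, against 1.55% and 0.167% of all tested genes. That count was 0 without the replicate block, without either mouse, or without the second mouse 2 library of 6 h atRA, and 2 without the first mouse 2 library of 6 h atRA.

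The Ugt1a locus needs separate treatment, because each of its genes joins its own first exon to the same 4 downstream exons. Ugt1a1 conjugates bilirubin, and Ugt1a6a, Ugt1a7c, Ugt1a9 and Ugt1a10 are known for phenols and other planar compounds. The shared exons hold 2316 bases (mm10, chr1:88215044-88215175, chr1:88215795-88215882, chr1:88216138-88216357 and chr1:88218127-88220002). The junctions of exon 1 and exon 2 are shown because only the lower-case part can tell the 7 transcripts apart. Each line gives the last 30 bases of exon 1 and, in capitals, the first 30 bases of exon 2 on the plus strand (GENCODE M21, GRCm38), where exon 2 covers chr1:88215044-88215073 in all of them.
Ugt1a10 (exon 1 end, chr1:88056307-88056336): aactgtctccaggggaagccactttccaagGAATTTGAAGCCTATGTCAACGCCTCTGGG
Ugt1a9 (exon 1 end, chr1:88071649-88071678): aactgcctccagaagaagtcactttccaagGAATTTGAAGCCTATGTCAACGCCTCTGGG
Ugt1a7c (exon 1 end, chr1:88095949-88095978): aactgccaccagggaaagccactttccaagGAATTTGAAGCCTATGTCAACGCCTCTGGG
Ugt1a6a (exon 1 end, chr1:88139302-88139331): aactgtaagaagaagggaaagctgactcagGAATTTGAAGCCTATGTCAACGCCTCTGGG
Ugt1a5 (exon 1 end, chr1:88166874-88166903): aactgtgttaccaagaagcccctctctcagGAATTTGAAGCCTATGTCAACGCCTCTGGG
Ugt1a2 (exon 1 end, chr1:88201471-88201500): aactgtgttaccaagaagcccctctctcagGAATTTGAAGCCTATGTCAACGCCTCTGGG
Ugt1a1 (exon 1 end, chr1:88212842-88212871): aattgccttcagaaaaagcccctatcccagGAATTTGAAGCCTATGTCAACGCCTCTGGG
The 7 junctions have 1 distinct exon 2 part and 6 distinct exon 1 parts, since those of Ugt1a5 and Ugt1a2 are the same.

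The authors' table counted the shared reads in every one of these genes. When RPKM were turned back into reads, the Ugt1a gene with the fewest had 6507 to 25175 reads per library, and the other genes had that number plus a smaller part of their own. That lowest gene was Ugt1a5 in 30 libraries and Ugt1a10 in 23, ties included. The reads above the lowest gene made up 19.7% to 29.8% of those listed for Ugt1a7c, 2.90% to 10.7% for Ugt1a1, 5.76% to 11.5% for Ugt1a6a, 0.869% to 2.29% for Ugt1a2 and 0.0207% to 1.01% for Ugt1a9. Ugt1a10 had at most 19 such reads and Ugt1a5 at most 6. The 7 listed values are thus mostly 1 measurement of the shared exons, and their close agreement in each test (with RXRi at 24 h, from -0.78 to -0.65) does not amount to 7 separate tests.

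The own part of each gene was fitted as an added measurement, in RPKM over the bases that lie outside the shared exons. Summed over genes, the own parts were 0.841 to 1.24 times the level of the shared exons in the 36 libraries. Ugt1a7c had the largest own part in every condition. It averaged 273 RPKM with atRA, 305 RPKM with 9cisRA, 156 RPKM with RXRi and 208 RPKM with DMSO at 24 h, and 119 RPKM at 0 h. Ugt1a1 differed more between conditions. Its own part had 22.4, 20.8, 27.8 and 28.8 RPKM at 24 h with RXRi against 54.7, 70.0, 76.9 and 89.0 RPKM with DMSO, and 10.9, 13.0, 11.001 and 13.5 RPKM at 0 h. RXRi libraries lay between the 0 h and the DMSO libraries with no overlap. The log2 difference of Ugt1a1 was -1.52 ± 0.11 with RXRi relative to DMSO at 24 h (SE, adjusted p = 7.99e-08) and 2.52 ± 0.11 with DMSO at 24 h relative to 0 h (SE, adjusted p = 1.81e-09), whereas those of Ugt1a7c were -0.40 ± 0.07 and 0.78 ± 0.07. The share of Ugt1a1 among own parts was 22.1% to 24.3% at 24 h with DMSO and 7.83% to 9.54% at 0 h, and it was 11.3% to 14.5% at 24 h with RXRi.

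**Figure D4:**
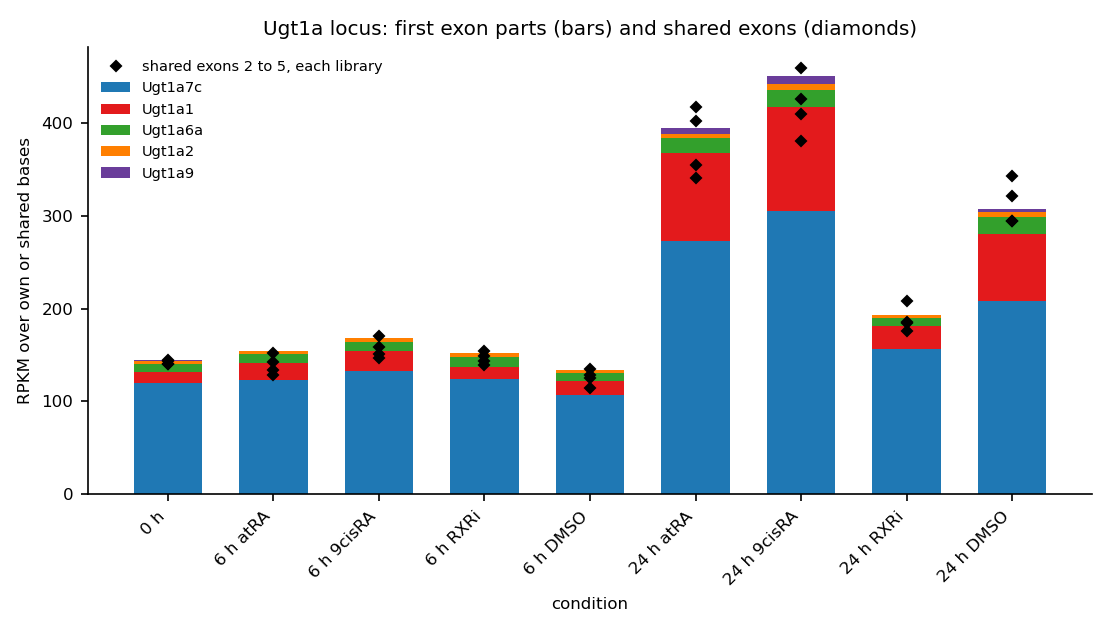
Stacked bars give the mean RPKM over the own bases of 5 Ugt1a genes in each condition, and diamonds the RPKM over shared exons 2 to 5 in each library. Bars and diamonds follow each other, and the Ugt1a1 part at 24 h is 24.9 RPKM with RXRi and 72.6 RPKM with DMSO.

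Other own parts moved as well. With RXRi at 24 h that of Ugt1a9 fell by 2.11, that of Ugt1a6a by 0.97 and that of Ugt1a2 by 0.91. Ugt1a9 is the least abundant of these, with 0.215, 0.282, 0.512 and 0.231 RPKM with RXRi against 2.02, 2.70, 3.54 and 3.87 RPKM with DMSO, which do not overlap. Its RXRi values rest on 5 to 13 reads per library. With atRA the own part of Ugt1a9 rose by 0.98, that of Ugt1a7c by 0.41 and that of Ugt1a1 by 0.40, and with 9cisRA they rose by 1.46, 0.56 and 0.63. Ugt1a6a did not pass the test with atRA (-0.19 ± 0.10) or 9cisRA (0.05 ± 0.10), and Ugt1a2 fell with atRA (-0.36), although the listed values of both genes rose with both isomers. At 6 h with RXRi the own parts of Ugt1a6a (0.33) and Ugt1a7c (0.23) rose, and that of Ugt1a1 did not pass the test (-0.20 ± 0.11). The bases outside the shared exons that the RPKM imply are 1871 for Ugt1a2 and 3641 for Ugt1a6a, more than the 900 and 954 bases of their first exons in GENCODE, so their own levels rest on gene models not used here.

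Genes that act with the conjugating enzymes were followed in lists chosen with earlier results of these data known. With RXRi at 24 h, where 30.4% of all tested genes were lower and 31.1% higher, 6 of 13 glutathione genes fell and 3 rose. The 3 lowest, Ggt1 (-4.88), Anpep (-4.22) and Dpep1 (-3.41), encode surface peptidases that break down glutathione and its conjugates and are found on the enterocyte brush border. Those that rose were Chac1 (2.55), which degrades glutathione, Slc7a11 (1.13), the cystine importer, and G6pdx (0.15). Gclm, the regulatory subunit of the rate-limiting enzyme of glutathione synthesis, fell by 0.54, and its catalytic subunit Gclc did not pass the test. Of 7 UDP-glucuronic acid genes 4 fell and 1 rose, and Ugdh, which makes UDP-glucuronic acid, fell by 0.86. Of 8 PAPS genes 3 fell and 3 rose. Papss2, which makes PAPS, fell by 3.10, whereas Papss1 rose by 0.32. All 9 of the other conjugating enzymes that changed, of 10 tested, fell, among them the epoxide hydrolases Ephx1 (-1.72) and Ephx2 (-2.28).

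Of 9 export and cleavage genes, 3 fell and 3 rose with RXRi at 24 h, about the shares of all tested genes (30.4% lower and 31.1% higher). The apical conjugate pumps Abcg2 and Abcc2 fell by 2.13 and 1.93, while Abcc1 rose by 0.70 and Abcc4 by 0.24. Of this list 7 of 9 genes rose and 1 fell with atRA, against 19.4% and 18.6% of all tested genes, and 6 rose and 1 fell with 9cisRA, against 24.4% and 23.5%. Abcc2 rose by 0.60 with atRA and 0.70 with 9cisRA. Of the glutathione genes 3 rose and 1 fell with atRA, and 4 rose and 1 fell with 9cisRA, and Gclm rose by 0.41 and 0.29. Of the UDP-glucuronic acid genes 3 rose and 0 fell with either isomer, and Ugdh rose by 0.25 with atRA and 0.21 with 9cisRA. Of the PAPS genes 2 rose and 1 fell with either isomer. Of 10 other conjugating enzymes, 2 rose and 2 fell with atRA, and 3 rose and 2 fell with 9cisRA. With DMSO at 24 h relative to 0 h, where 29.2% of all tested genes were higher and 30.3% lower, all 7 UDP-glucuronic acid genes rose, as did 5 of 8 PAPS genes, with Papss2 higher by 3.09, 7 of 13 glutathione genes (5 fell) and 7 of 10 other conjugating enzymes (1 fell). Of the export list 3 rose and 3 fell.

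Transcripts of regulators were measured in the same libraries. Of 22 tested, 11 rose and 8 fell with RXRi at 24 h, against 31.1% and 30.4% of all tested genes. With atRA 9 rose and 4 fell, against 19.4% and 18.6%, and with 9cisRA 12 rose and 4 fell, against 24.4% and 23.5%. With DMSO at 24 h relative to 0 h, 11 rose and 3 fell. Among the 8 that fell with RXRi were the vitamin D receptor Vdr (-2.82), CAR (Nr1i3, -2.26), PXR (Nr1i2, -1.74) and Ppara (-0.84). The larger number, 11, rose, and the part of any regulator in the members' changes was not tested. Nr1i2 rose by 0.64 with atRA and 0.67 with 9cisRA, and Ppara by 1.25 and 1.35. Genes known as readouts of NRF2 rose with the isomers, 5 of 6 with either one, with Srxn1 higher by 0.76 with atRA and 0.77 with 9cisRA and Nqo1 by 0.29 and 0.35. With RXRi 2 rose, Hmox1 by 0.65 and Slc7a11 by 1.13, and 3 fell, among them Nqo1 (-0.52). With DMSO at 24 h relative to 0 h, 2 rose and 2 fell.

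The 4 AHR readouts rose with RXRi at both times. Cyp1a1 rose by 4.19 at 6 h and 3.32 at 24 h, and Tiparp by 1.94 and 0.96. With DMSO at 24 h relative to 0 h, 3 of the 4 fell, among them Cyp1a1 (-4.21). With each isomer at 24 h, 1 of the 4 fell (Cyp1a1, -0.59 with atRA and -0.30 with 9cisRA). Ugt1a6a and the Gsta genes are known AHR targets in mouse liver. At 6 h the own part of Ugt1a6a was higher with RXRi than with DMSO, by 0.33 on the log2 scale. Gsta1 averaged 1418 RPKM with RXRi and 1682 RPKM with DMSO at that time. At 24 h both the own part of Ugt1a6a and Gsta1 were lower with RXRi than with DMSO, by the values given above. The part of AHR in any member's change was not tested.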

How the data were processed

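mRNA libraries (TruSeq) of 36 organoid RNA samples were analysed from the authors' deposited table of RPKM for 12652 genes. Per the submitters' processing notes, bcl2fastq 2.17, STAR 2.5.2b and the mm10 build were used. The counting method and its treatment of shared exons and strand are not given in the sources used here. Members and gene lists were chosen with earlier results of these data known. Genes with at least 1 RPKM in at least 4 libraries (11361) were kept. Duplicates were averaged per mouse on the log2(RPKM + 0.5) scale, which understates changes of low genes. limma 3.58.1 (R 4.3.3) was fitted to all 9 conditions with mouse as a block, an intensity trend and Benjamini-Hochberg adjustment, with calls at an adjusted p below 0.05, two-sided. Of 15 comparisons, 24 h RXRi against 0 h was added after the data were seen.

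Samples of 1 mouse come from 1 culture. Deviations of the mice had a median correlation of 0.441 between conditions, over 0.1 in 33 of 36 pairs, and duplicate numbers one of -0.0485. The duplicates differed by more than counting error (chi-square per degree of freedom 3.18 to 15.9). Because all values of a gene are multiples of 1 read, whole reads were recovered for 100% of 12652 genes (tolerance 0.05 read), and 1 read of a 2000-base gene was worth 0.0165 to 0.0244 RPKM. limma-voom on these reads called 3556 genes higher and 3481 lower with RXRi at 24 h, where limma on RPKM called 3535 and 3452. Intervals are 95% confidence intervals.

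Members described in full were, per comparison, up to the 8 highest and 8 lowest called ones that moved alike in the 2 mice and averaged 1 RPKM or more, and all Ugt1a genes. Own and shared parts of Ugt1a genes were separated by subtracting the reads of the lowest Ugt1a gene. The fit was tested on simulated data. Promoters came from RefSeq (GRCm38.p6) and transcripts from GENCODE M21. Python 3.11.15, pandas 2.3.3, Biopython 1.88 and matplotlib 3.10.9 were used. Alternatives were other pseudocounts (0.1 and 1), filters, scalings, fits without the replicate block or over 36 libraries, limma-voom, and leaving out each library or mouse. The values of 1 marker gene are not reported here.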

Additional observations from a re-analysis of the deposited data

Results flagged for a closer look

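In 188 groups of 4 libraries checked for a sample apart from the others, 5 had one. The nominal rate of that check, about 1 in 20 groups, is for 4 independent values. It cannot be applied here, because each group holds duplicates of 2 mice and the listed Ugt1a values share reads. Gstm7 at 6 h with RXRi had 2.18 RPKM in the second mouse 2 library, against 1.71 to 1.73 RPKM in the others. Sult1b1 had 4.81 RPKM in that same library, against 3.37 to 3.48 RPKM. Gstt2 at 6 h with 9cisRA had 15.8 RPKM in the second mouse 1 library, against 18.5 to 18.9 RPKM. Mgst3 at 24 h with 9cisRA had 1338 RPKM in the first mouse 2 library, against 1192 to 1201 RPKM. Ugt2a3 at 0 h had 8.25 RPKM in the first mouse 1 library, against 9.19 to 9.35 RPKM.

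For 27 named values the effect of a compound against DMSO differed between 24 h and 6 h by the test of the difference itself (24 h minus 6 h, log2 scale, limma). For atRA it was 0.50 for Gsta1, 0.44 for Gsta4, 0.44 for Gsta2 and 0.27 for Gstt2. It was -1.04 for Sult1c2, -1.01 for Ugt2b38, -0.76 for Ugt2b37, -0.72 for Ugt2b36, -0.66 for Ugt2a3, -0.53 for Ugt2b35 and -0.41 for Ugt2b34. For 9cisRA it was 0.41 for Gsta1, 0.40 for Gsta2, 0.40 for Gsta4, 0.36 for Mgst3, -0.93 for Sult1c2 and -0.49 for Ugt2b35. For RXRi it was 0.53 for Mgst3 and 0.39 for Gstt2. It was -5.02 for Sult1b1, -3.38 for Ugt2b38, -3.16 for Ugt2b5, -2.70 for Sult6b2, -2.58 for Ugt2b37, -2.43 for Ugt2a3, -2.09 for Ugt2b36 and -1.47 for Gstm1. The cause of these differences was not tested.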

How the results depend on the processing

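Without the replicate block that pairs samples of 1 mouse, the counts of called members were 1 for 6 h atRA (2 with it), 2 for 6 h 9cisRA (16), 11 for 6 h RXRi (27), 19 for 24 h atRA (32), 17 for 24 h 9cisRA (30), 0 for 6 h 9cisRA against atRA (1), 3 for 6 h DMSO against 0 h (15), 1 for the change of the atRA effect (11) and 1 for that of the 9cisRA effect (6). Of 208 named values, 66 no longer passed the test without it. For 24 h RXRi the count was 38 without it and 40 with it.

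Treating 36 libraries as samples gave 6 for 6 h atRA, 2 for 6 h and 1 for 24 h 9cisRA against atRA, and 10 for the change of the 9cisRA effect. Quantile normalization gave 7 and 3 for the changes of the atRA and 9cisRA effects, and put the change of the 9cisRA effect on Gsta1 at -0.021, the 1 named value that changed sign under any alternative. limma-voom gave 4 for 6 h atRA, and counting genes that share reads once gave 10 for 6 h 9cisRA, 33 for 24 h RXRi and 33 for 24 h DMSO against 0 h (40 each). Leaving out single libraries or mice gave 1 to 5 for 6 h atRA, 6 to 27 for 6 h DMSO against 0 h, 0 to 2 for 6 h and 0 to 1 for 24 h 9cisRA against atRA, and 5 to 11 for the change of the 9cisRA effect. For 24 h RXRi it gave 39 to 41 and for 24 h DMSO against 0 h 39 to 42. Scaling to the sum of reads shifted the median of all genes by -0.12 for 24 h 9cisRA, -0.11 for the change of the 9cisRA effect and -0.12 for 24 h RXRi against 0 h. It gave 3 higher and 15 lower for 6 h DMSO against 0 h, 3 and 9 for the change of the atRA effect and 1 and 6 for that of the 9cisRA effect, and both it and quantile normalization gave 2 and 1 for 6 h atRA. Precision rests on 2 mice, and the lowest called values on few reads. At 24 h with RXRi these were 13 to 26 for Sult1b1, 7 to 29 for Ugt2b37, 8 to 41 for Ugt2b38 and 5 to 13 for the own part of Ugt1a9. The causes of these dependences were not tested.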
